A study of Schizosaccharomyces pombe with 8 samples.

Results

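Splicing of annotated introns was compared between fission yeast, Schizosaccharomyces pombe, carrying the temperature-sensitive allele prp10-R379H and yeast carrying sap114-A152V. The introns compared were the 3246 of 5144 annotated introns that had at least 20 reads in both libraries. They belonged to 1724 genes and were 32 to 855 nt long, with a median of 60 nt. For each intron the odds of unspliced over spliced reads were taken, with 0.5 added to each count, put on a log2 scale and centred on the median of its library. The difference, prp10-R379H minus sap114-A152V, is called the centred log2 odds ratio. A value of 1 means that an intron was retained 2-fold more in prp10-R379H, relative to the median intron of each strain, than in sap114-A152V. Each strain was sequenced as 1 library of 1 isolate, ts102B12 for prp10-R379H and ts105M13 for sap114-A152V. The differences therefore have no replicate check, and intervals given here cover counting error only.

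Prp10 is the large subunit of SF3b and Sap114 a subunit of SF3a. Both complexes are parts of the U2 snRNP, which pairs with the branch site of the intron. SF3b holds the branch-site helix with the bulged adenosine that attacks the 5′ splice site, and SF3a links SF3b to the rest of the U2 snRNP and helps it to join the pre-mRNA. Introns of fission yeast are short compared with those of animals, and many genes have several.

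All strains were grown in YPD at 25 °C to mid-log phase, moved to 37 °C for 15 min and collected, and poly(A) RNA was made into directional libraries from 1 µg of total RNA. The other libraries were prp1-G705D, cwf22-G191D, prp22-V801M;G917R and ntr1-W597R, 1 library each, and 2 libraries of the wild type (WT, strain ED666), all held at 37 °C in the same way. The changes in the prp10 and sap114 proteins are single residues, so the read counts cannot check the labels. Reads over annotated introns came to 809751 in prp10-R379H and 1312546 in sap114-A152V, with medians of 77 and 108 reads per compared intron. A further 346 introns fell under 20 reads in prp10-R379H alone, 229 in sap114-A152V alone and 1323 in both.

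The introns printed here carry the main contrasts. Each is given from 5′ to 3′ on the strand of the gene, from the reference genome at the coordinates of the deposited table (build ASM294v2), and all lie between coding exons. Capitals mark the first 6 bases (the 5′ splice site), the last match to CTAAC, to CTAAT, to CTGAC or to CTGAT within the last 60 nt (a candidate branch site), and the last 3 bases. Where only the ends are in capitals there was no such match. The first set holds introns retained more in prp10-R379H than in sap114-A152V.
ini1 intron 3, chrI:2494857-2494895, minus strand: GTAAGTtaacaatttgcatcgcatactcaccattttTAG
pup2 intron 1, chrI:3910315-3910352, minus strand: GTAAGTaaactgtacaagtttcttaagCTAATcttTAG
clr6 intron 10, chrII:850036-850079, minus strand: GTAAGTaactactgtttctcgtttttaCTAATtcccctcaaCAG
ysh1 intron 6, chrI:3621471-3621513, minus strand: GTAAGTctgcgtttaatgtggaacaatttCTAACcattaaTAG
bpb1 intron 1, chrIII:558129-558174, minus strand: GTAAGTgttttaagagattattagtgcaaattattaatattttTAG
dim1 intron 1, chrIII:878550-878599, minus strand: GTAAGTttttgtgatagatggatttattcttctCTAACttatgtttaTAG

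All 6 began with GTAAGT and were 38 to 50 nt long, but they are chosen examples. Among the 12 introns with the largest values, pdc2 intron 3 began with GTACGT, ice2 intron 3 with GTAATT and an intron of 86 nt with GTTCGG. The second set holds introns that were retained less in prp10-R379H than in sap114-A152V.
tbp1 intron 2, chrI:4416066-4416117, plus strand: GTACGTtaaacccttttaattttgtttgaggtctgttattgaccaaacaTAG
tbp1 intron 3, chrI:4416379-4416448, plus strand: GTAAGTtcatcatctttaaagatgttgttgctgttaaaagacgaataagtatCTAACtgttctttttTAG
SPAC8F11.08C intron 2, chrI:2866236-2866288, minus strand: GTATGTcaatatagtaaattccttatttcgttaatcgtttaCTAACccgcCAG
gmh4 intron 1, chrII:1391094-1391146, plus strand: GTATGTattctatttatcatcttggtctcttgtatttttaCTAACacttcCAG
spo20 intron 3, chrI:609821-609883, plus strand: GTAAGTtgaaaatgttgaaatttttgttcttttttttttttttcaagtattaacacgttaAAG

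These 5 were 52 to 70 nt long and began with GTACGT in one, with GTAAGT in a pair and with GTATGT in the others. The third set pairs introns of one gene whose values lay on opposite sides, the one with the higher value first in each pair. The side of pck1 intron 3 is uncertain, since its counting interval ran from -0.47 to 3.43.
rpb1 intron 3, chrII:1591343-1591381, plus strand: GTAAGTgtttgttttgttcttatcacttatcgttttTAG
rpb1 intron 4, chrII:1591458-1591502, plus strand: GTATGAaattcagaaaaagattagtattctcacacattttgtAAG
sck1 intron 3, chrI:2402494-2402543, minus strand: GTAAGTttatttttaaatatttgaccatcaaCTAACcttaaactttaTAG
sck1 intron 2, chrI:2403511-2403559, minus strand: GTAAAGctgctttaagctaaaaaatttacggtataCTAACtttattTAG
pck1 intron 3, chrI:2367726-2367766, minus strand: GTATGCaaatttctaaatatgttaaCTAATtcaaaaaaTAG
pck1 intron 2, chrI:2367956-2367999, minus strand: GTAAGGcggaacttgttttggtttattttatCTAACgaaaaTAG

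The introns of each pair are neighbours of similar length that differ in their first 6 bases. Both introns of sck1 and of pck1 hold a branch-site match, and neither of the rpb1 introns, of 39 and 45 nt, does.

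The typical intron was retained less in prp10-R379H than in sap114-A152V. The median unspliced share over the compared introns was 64.7% in prp10-R379H and 80.1% in sap114-A152V, a difference of -15.4 percentage points. In the WT libraries the medians were 5.05% and 6.01%. On the log2 odds scale the medians were 0.86 in prp10-R379H and 1.98 in sap114-A152V, which makes the median odds 2.18-fold higher in sap114-A152V. The pooled unspliced share was 62.2% in prp10-R379H (95% Wilson interval 62.1 to 62.3%) and 77.0% in sap114-A152V (76.9 to 77.1%). The share was lower in prp10-R379H for 2822 introns, higher for 416 and equal for 8. More introns were mostly unspliced in sap114-A152V as well: 2218 introns (68.3%) passed 50% unspliced in prp10-R379H and 2747 (84.6%) in sap114-A152V. With 1 library each, a difference between the strains and a difference between these cultures cannot be told apart.

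**Figure D1:**
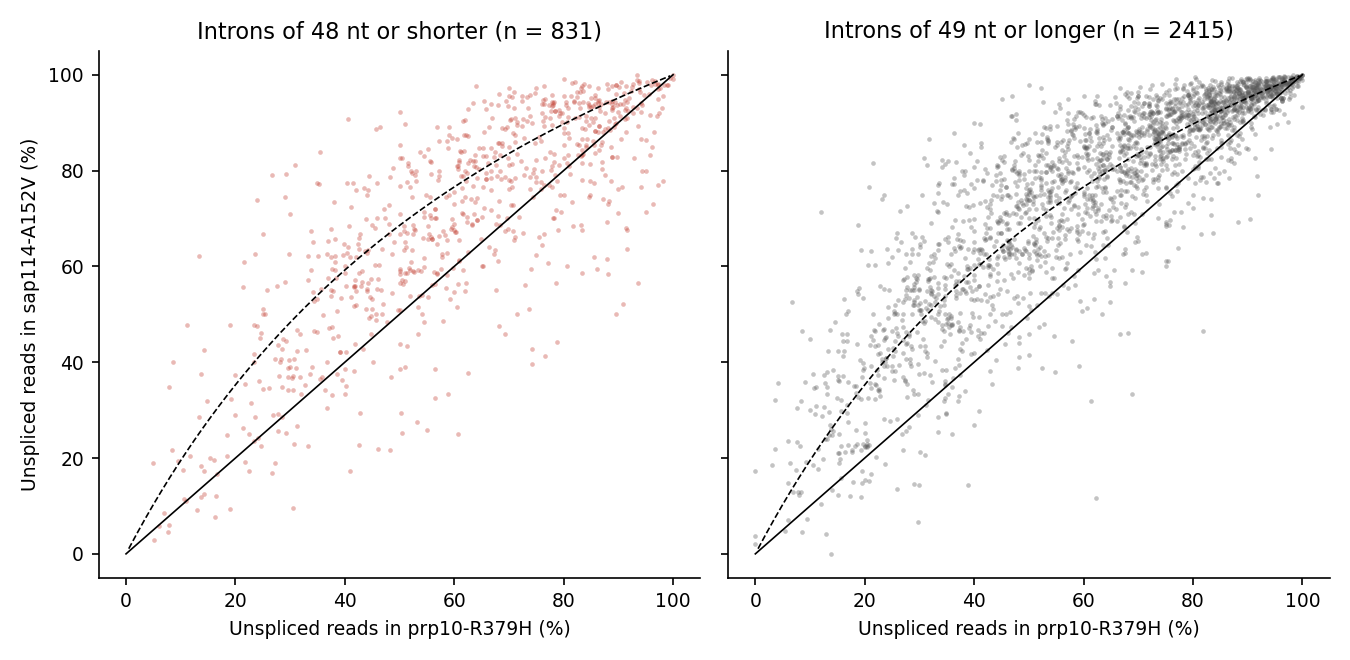
Unspliced share of each compared intron in prp10-R379H (x axis, %) and in sap114-A152V (y axis, %), on the left for 831 introns of 48 nt or shorter and on the right for 2415 longer introns. Each point is 1 intron, the solid line marks equal shares and the dashed line marks the 2.18-fold difference of the medians in odds. Of the short introns 23.0% lie below the solid line, with a higher share in prp10-R379H, against 9.32% of the longer ones.

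Introns kept much the same order in both strains around that shift. The Spearman correlation of the log2 odds across the 3246 introns was 0.852, the 9th highest of the 15 pairs of mutant libraries, in which it ran from 0.736 to 0.885. This is a description across introns of the same genome, which are not replicates. The centred log2 odds ratio had a standard deviation of 1.04 over introns, of which counting error alone would give 0.71. That spread was the 5th largest of the 15 mutant pairs, in which it ran from 0.88 to 1.26.

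After centring, 504 introns (15.5%) were at least 2-fold higher and 471 (14.5%) at least 2-fold lower in prp10-R379H. Without centring the split was 95 higher (2.93%) and 1757 lower (54.1%), so every direction below is relative to the median of each library unless shares are given. The WT libraries set against each other gave 15.4% and 16.2% of 2642 introns past 2-fold. Their standard deviation was 1.18, where counting error alone would give 1.34, so these percentages can be counting error. The WT pair thus cannot show whether the folds of the mutant pair exceed the spread between libraries of one strain. The mutant pair and the WT pair parted when the 95% counting interval also had to exclude 0. Then 336 introns (10.4%) were higher and 252 (7.76%) lower in prp10-R379H, against 2.31% and 1.67% in the WT pair. Reads were fewer and counting error larger in the WT pair, so fewer introns could pass there. Introns near the 2-fold line were common: 32 lay up to 0.05 above it and 30 up to 0.05 below it on the higher side. A fit with edgeR's quasi-likelihood test that takes the spread from the WT pair, and so assumes that a lone mutant library varies like it, called 89 introns (2.74%) higher and 63 (1.94%) lower at a Benjamini-Hochberg adjusted p under 0.05. DESeq2 under the same assumption called 4 (0.123%) higher and 5 (0.154%) lower.

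Those 9 introns were in 7 genes, of which grx1 and aha1 were picked out after their values were seen. Higher in prp10-R379H were ini1 intron 3, cwf7 intron 1, pup2 intron 1 and grx1 intron 1. Lower were all 3 introns of tbp1, wos2 intron 1 and aha1 intron 1. The intron of the glutaredoxin gene grx1 was unspliced in 83.6% of reads in prp10-R379H and in 67.0% in sap114-A152V, with a centred log2 odds ratio of 2.45 (counting SE 0.085). It was one of the minority with a higher share in prp10-R379H before any centring. The intron of aha1, which encodes an activator of the Hsp90 chaperone, was unspliced in 93.4% of reads in prp10-R379H and 99.4% in sap114-A152V (-2.35, SE 0.13), on 9679 unspliced reads in prp10-R379H and 23306 in sap114-A152V.

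Short introns stood higher in prp10-R379H than in sap114-A152V, relative to each library's median. For the 831 introns of 48 nt or shorter the median centred log2 odds ratio was 0.44, with 238 (28.6%) at least 2-fold higher and 77 (9.27%) at least 2-fold lower. For the 199 introns of 40 nt or shorter it was 0.71, with 83 higher and 8 lower. Introns of 49 to 60 nt had a median of -0.05, those of 61 to 103 nt -0.16 with 86 higher and 151 lower, and those of 104 to 855 nt -0.03. Short introns came closer to equal retention than to a reversal. Introns of 40 nt or shorter had a median unspliced share of 71.1% in prp10-R379H and 76.3% in sap114-A152V, and the median of their uncentred log2 odds ratio was -0.42, against -1.10 over all compared introns. In single introns the order could turn: 68 of these very short introns (34.2%) had a higher share in prp10-R379H.

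The edgeR fit used the same counts and library medians, so the lengths of its calls restate this tilt and are no separate support. Of the 89 called higher, 55 (61.8%) were 48 nt or shorter, and of the 63 called lower 5 (7.94%) were, beside 25.6% of all compared introns. The higher value of short introns was present at every depth: in the quartile classes of introns by total reads, from fewest to most, the median of the short ones was 0.34, 0.43, 0.34 and 0.56. Across the 1973 introns of 32 to 70 nt the Spearman correlation of length with the centred log2 odds ratio was -0.28, and over all lengths it was -0.18, both as descriptions across introns. Within genes the contrast was present too, in a comparison added after the pattern had been seen. Of 281 genes with an intron of 48 nt or shorter and another over 60 nt, the short one stood above the long one in 193 (68.7%), with a median gap of 0.50. It stood at least 1 above in 86 genes and at least 1 below in 20.

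**Figure D2:**
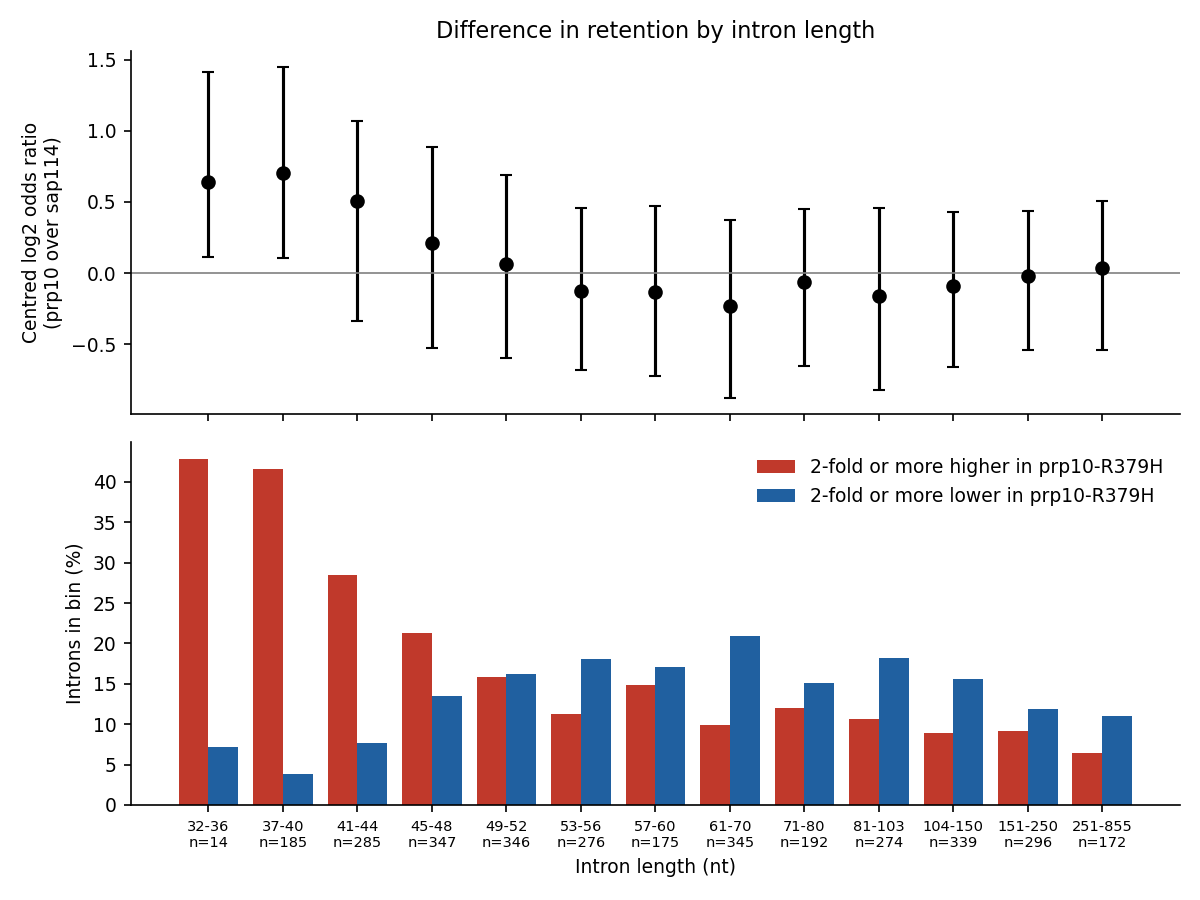
Centred log2 odds ratio, prp10-R379H over sap114-A152V, by intron length. The upper panel gives the median (point) and quartiles (bars) in each bin of length in nt, and the lower panel the percentage of introns at least 2-fold higher or lower in prp10-R379H. The median is 0.71 at 37 to 40 nt, 0.51 at 41 to 44 nt and 0.21 at 45 to 48 nt, and lies between -0.23 and 0.07 in every longer bin.

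Set beside all 8 libraries, prp10-R379H had the highest median for introns of 32 to 40 nt and sap114-A152V the lowest. Both add to the contrast there. Among the 2514 introns that reached 20 reads in all of them, those of 32 to 40 nt had a median centred log2 odds of 0.43 in prp10-R379H and -0.43 in sap114-A152V. In prp1, cwf22, prp22 and ntr1 it was -0.24, -0.28, -0.18 and -0.25, and in the WT libraries -0.11 and -0.33. The value for prp10-R379H was above 0 and those of the other 7 libraries below it, and sap114-A152V lay nearer to the other mutants than prp10-R379H did. Introns of 48 nt or shorter minus those of 61 to 103 nt gave 0.09 in prp10-R379H and -0.56 in sap114-A152V, with -0.40 to -0.56 in the other mutants and -0.22 and -0.36 in WT. Again prp10-R379H was the highest of the 8, while sap114-A152V was level with ntr1 (-0.56) and close to cwf22 (-0.53). At 41 to 44 nt sap114-A152V (-0.58) was not the lowest, with prp22 at -0.62 and prp1 at -0.60. The contrast was chosen on these values and each strain has 1 library, so it is given with no test. For introns of 104 nt or longer the median was 1.10 in prp10-R379H and 1.17 in sap114-A152V, with 0.98 to 1.20 in the other mutants.

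**Figure D3:**
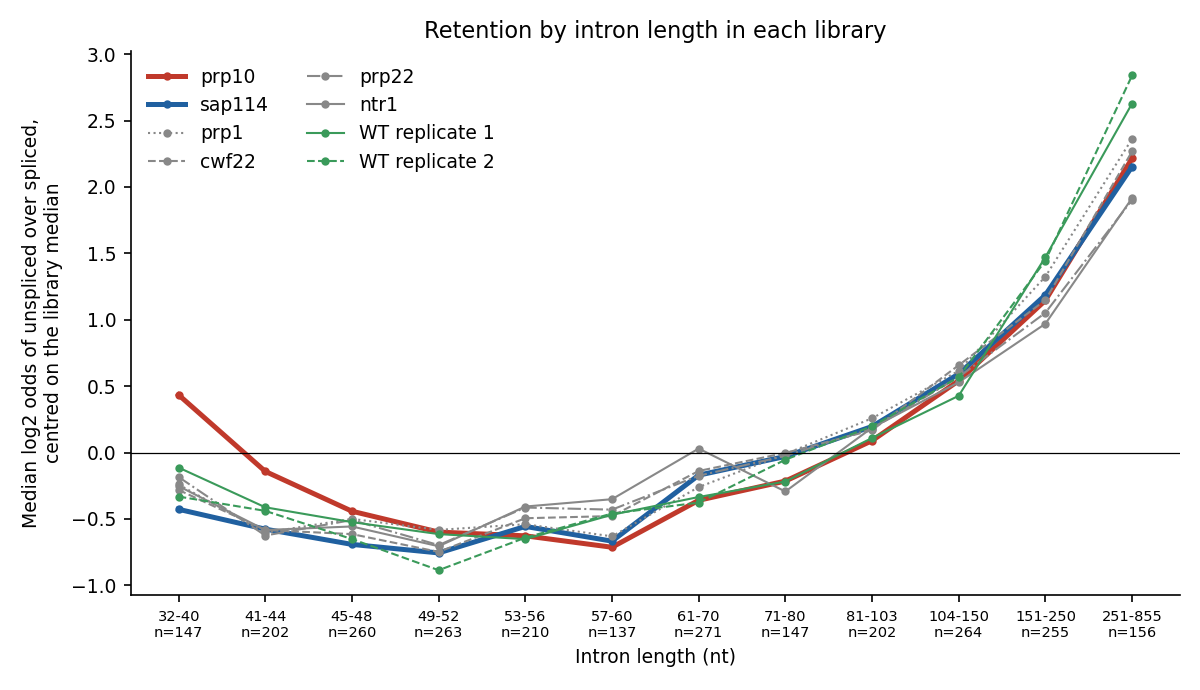
Median log2 odds of unspliced over spliced reads, centred on the median of each library (y axis), by intron length in nt (x axis), for the 2514 introns with at least 20 reads in all 8 libraries. Each line is 1 library, prp10-R379H in red, sap114-A152V in blue, other mutants in grey and WT in green. In the bin of 32 to 40 nt the prp10-R379H line stands at 0.43 and the sap114-A152V line at -0.43, the highest and the lowest of the 8. In the longest bin they stand at 2.22 and 2.15, within a range of 1.90 to 2.84 over the 8 libraries.

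The bases at the splice sites went with smaller differences. Introns beginning with GTAAGT (933 introns) had a median centred log2 odds ratio of 0.13, with 178 at least 2-fold higher and 111 lower in prp10-R379H. Those beginning with GTATGT (707 introns) had a median of -0.14, with 78 higher and 129 lower. Both hexamers differ in the fourth base, which was then taken alone, a view added after these values were seen. With A there the median was 0.11 (1616 introns, 300 higher and 207 lower), with C 0.17 (313 introns), with T -0.11 (1214 introns, 135 higher and 211 lower) and with G -0.18 (102 introns). A stood above T in each of the 4 length classes. Single hexamers did not all follow the fourth base. With T there, GTATGA had a median of -0.11 (172 introns), but GTATGG had 0.28 (48 introns) and GTTTGT 0.25 (44 introns). With A there, GTAAGA had 0.13 (220 introns) but GTGAGT -0.13 (57 introns). Introns of 48 nt or shorter with A had a median of 0.68 (403 introns, 150 higher and 34 lower), those with T 0.19 (308 introns, 61 higher and 37 lower), and introns of 61 to 103 nt with T -0.32 (302 introns, 23 higher and 63 lower). Of 438 genes with introns of both kinds, A stood above T in 255 (58.2%), with a median gap of 0.18. Over the introns with enough reads in every library, A minus T was 0.21 in prp10-R379H and -0.01 in sap114-A152V, and ran from -0.11 in prp1 to 0.17 in cwf22 among the other mutants.

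The sequence of the candidate branch site, which U2 snRNA pairs with, went with the difference in introns up to 103 nt. The 1461 introns whose last match was CTAAC had a median of -0.08 (185 higher, 263 lower) and the 794 with CTAAT had 0.12 (142 higher, 90 lower). The 187 with CTGAC had -0.13, the 75 with CTGAT 0.08 and the 728 with no match 0.17 (137 higher, 81 lower). These classes also differed in length, with medians of 67 nt for CTAAC, 57 nt for CTAAT and 54 nt for no match. Among introns of 48 nt or shorter the median was 0.26 with CTAAC and 0.58 with CTAAT, and at 49 to 60 nt -0.22 with CTAAC and 0.04 with CTAAT. At 61 to 103 nt it was -0.35 with CTAAC (391 introns, 41 higher and 96 lower), 0.01 with CTAAT and -0.14 with no match. At 104 nt or longer the values came to -0.02 with CTAAC and -0.01 with CTAAT. A branch-site adenosine within 37 nt of the 5′ splice site went with a median of 0.32 (647 introns, 180 higher and 64 lower), and these introns were mostly short as well. In contrast the distance from the branch site to the 3′ splice site gave nearly level medians, between -0.08 and 0.02 over its quartile classes. The share of T between branch site and 3′ splice site gave -0.09 to 0.01. GC content gave 0.14 in the lowest quartile class and -0.04 in the highest, and the intron's place in its gene 0.09 for first, 0.12 for middle and -0.06 for last introns and -0.05 for the intron of a gene with a single one. These letters describe the introns, and no branch site was mapped in these data.

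The 12 introns with the largest values, by a rule of at least 50 reads in both libraries and 1 intron a gene, were 36 to 86 nt long. Of them 9 were 48 nt or shorter and 9 began with GTAAGT. The 12 with the smallest values were 44 to 215 nt long, with 1 of 48 nt or shorter and 4 that began with GTAAGT.

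Intron 1 of dim1, which encodes a small tri-snRNP protein, differed most. It was unspliced in 33 of 53 reads in prp10-R379H (62.3%, 95% Wilson interval 48.8 to 74.1%) and in 7 of 60 reads in sap114-A152V (11.7%, 5.77 to 22.2%). The other mutants ran from 30.1% to 65.6% and the WT libraries stood at 9.68% and 8.22%, both inside the interval of sap114-A152V. Its centred log2 odds ratio was 4.67 (counting SE 0.69), and the edgeR adjusted p with the WT spread was 4.08e-05. In the DESeq2 fit its adjusted p was 0.054.

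Intron 3 of ini1, the gene of a small SF3b subunit whose human counterpart contacts that of Prp10, was unspliced in 174 of 186 reads in prp10-R379H (93.5%, 89.1 to 96.3%) and in 147 of 260 reads in sap114-A152V (56.5%, 50.5 to 62.4%). In the WT libraries 6 of 150 and 17 of 364 reads were unspliced. The centred log2 odds ratio was 4.55 (SE 0.46, edgeR adjusted p = 1.75e-19). The single intron of cwf7, a gene of the Prp19 complex, was unspliced in 96.3% of 272 reads in prp10-R379H and in 73.0% of 111 reads in sap114-A152V. It was already retained in WT, at 39.1% and 47.7%, and its value was 4.35 (SE 0.55, edgeR adjusted p = 8.57e-10). Both introns are 39 nt long, and both fits called them.

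Intron 6 of ysh1, the gene of the nuclease that cuts pre-mRNA at the poly(A) site, had 88.1% unspliced reads in prp10-R379H and 58.3% in sap114-A152V (3.48, SE 0.56). Intron 10 of clr6, which encodes a histone deacetylase, had 60.7% in prp10-R379H and 25.0% in sap114-A152V (3.29, SE 0.59). Intron 3 of pdc2, for a factor of mRNA decapping, had 74.2% in prp10-R379H and 39.6% in sap114-A152V (3.23, SE 0.43). Intron 1 of imp3, of the U3 snoRNP, had 76.6% in prp10-R379H and 41.3% in sap114-A152V (3.31, SE 0.51). In each of these the raw share was higher in prp10-R379H, against the overall shift, and the edgeR fit called all 4. Intron 2 of SPAC5D6.04, a transporter gene, reached 98.2% of 56 reads in prp10-R379H and 77.8% of 54 in sap114-A152V (4.57, counting interval 2.06 to 7.08, on 1 spliced read in prp10-R379H). The remaining large values were those of intron 3 of rpb1, intron 3 of ice2 (3.24, interval 1.47 to 5.01, on 3 spliced reads in prp10-R379H) and intron 3 of sck1. An intron of 86 nt on chromosome I that matched no annotated gene had no spliced read among 67 in prp10-R379H, which allows a spliced share of up to 4.48%, and 6 among 89 in sap114-A152V; it was about as unspliced in WT (95.8% and 96.5%).

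On the other side the tbp1 gene, which encodes the TATA-binding protein, stood lower in prp10-R379H over all 3 of its introns. Intron 1 was unspliced in 96.6% of 7366 reads in prp10-R379H and 99.8% of 12385 reads in sap114-A152V. Intron 2 had 88.8% of 2170 reads in prp10-R379H and 99.2% of 3315 in sap114-A152V. Intron 3 had 67.7% of 2050 reads in prp10-R379H and 96.0% of 3485 in sap114-A152V. The centred log2 odds ratios were -2.70, -2.79 and -2.40, with counting SEs of 0.28, 0.29 and 0.14. In WT these introns differed widely, with 31.8% and 34.2% unspliced reads for intron 1 and 1.33% and 2.13% for intron 3. In ntr1 the 3 introns had 99.3%, 97.3% and 93.6%.

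Intron 2 of SPAC8F11.08C, which encodes an esterase or lipase, had 12.1% unspliced reads in prp10-R379H (7 of 58) and 71.3% in sap114-A152V (82 of 115). Its value was -2.96 (SE 0.64, edgeR adjusted p = 0.00212), and prp10-R379H was the lowest of the 6 mutants. Intron 2 of pck1, a gene of the protein kinase C family, had 124 of 155 reads unspliced in prp10-R379H and 220 of 222 in sap114-A152V (-3.36, counting interval -5.24 to -1.47, on 2 spliced reads in sap114-A152V). Intron 1 of gmh4, a galactosyltransferase gene, had 79.6% in prp10-R379H and 98.3% in sap114-A152V (-2.55, counting interval -4.21 to -0.88, edgeR adjusted p = 0.057). Of the 12 introns, 9 had 5 or fewer spliced reads in sap114-A152V, so that their folds rest on a handful of reads. SPAC8F11.04 intron 1, mot2 intron 2 and imp2 intron 1 had 1 spliced read each there. Their values were -3.78 (interval -6.22 to -1.35), -3.55 (-6.01 to -1.08) and -2.76 (-5.21 to -0.32). Intron 4 of vac8 (-2.57, SE 0.65) and intron 1 of sod22 (-2.44, SE 0.68) rested on 6 and 5 spliced reads in sap114-A152V.

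**Figure D4:**
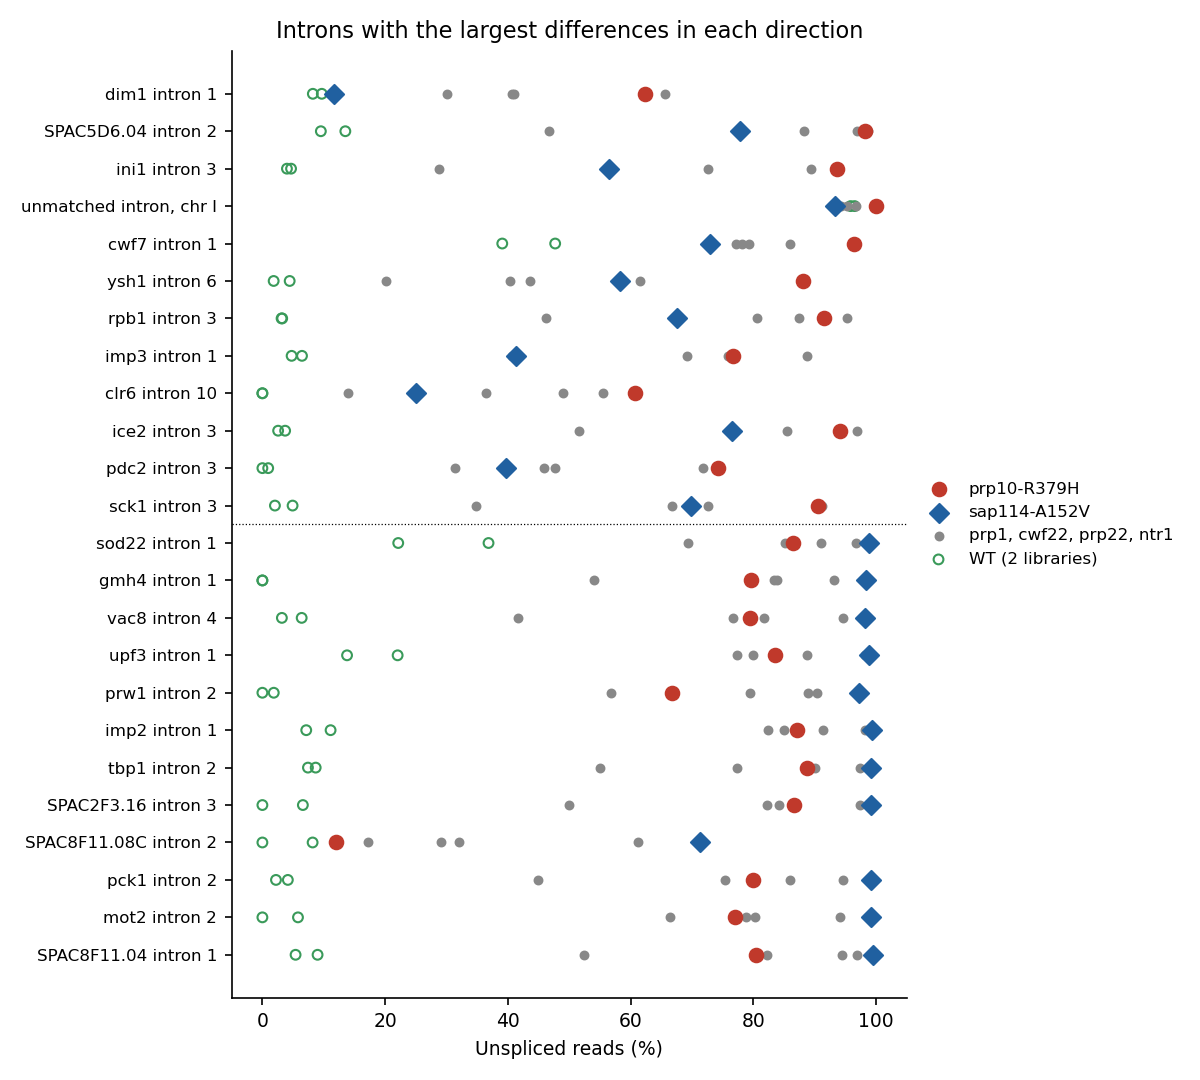
Unspliced reads (x axis, %) of the 24 introns with the largest and smallest centred log2 odds ratios, the largest at the top, in prp10-R379H (red circles), sap114-A152V (blue diamonds), the other 4 mutants (grey) and WT (green, open). Above the dotted line prp10-R379H lies to the right of sap114-A152V in all 12 introns, and below it to the left in all 12, as the choice of introns fixes.

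Introns of one gene could go opposite ways. In rpb1, the gene of the large subunit of RNA polymerase II, intron 3 was unspliced in 91.5% of reads in prp10-R379H and in 67.6% in sap114-A152V (3.42, SE 0.60). The next intron, 45 nt long, had 76.1% in prp10-R379H and 94.8% in sap114-A152V (-1.33, SE 0.62). In sck1, a kinase gene, intron 3 had 90.4% in prp10-R379H and 69.8% in sap114-A152V (3.13, SE 0.46), and intron 2 had 57.7% in prp10-R379H and 88.4% in sap114-A152V (-1.33, SE 0.48). In pck1, beside intron 2 above, intron 3 had 98.4% in prp10-R379H and 97.9% in sap114-A152V, and its value of 1.48 had a counting interval of -0.47 to 3.43. In SPAC5D6.04, beside intron 2 above, intron 1 had 47.4% in prp10-R379H and 80.5% in sap114-A152V (-1.04, SE 0.56), with an interval that also included 0. Over the 840 genes with at least 2 compared introns, 59 held both an intron at least 2-fold higher and one at least 2-fold lower. The standard deviation was 1.05 over their 2348 introns and 0.97 within genes, close to that over all of them. Of the 448 genes with exactly 2 compared introns, 237 had both on the same side of 0. Over all compared introns 15.5% were at least 2-fold higher and 14.5% lower. Whether 59 genes are more than these shares would give was not tested.

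By function, the introns of genes for branch-site recognition stood highest in prp10-R379H relative to sap114-A152V. Its compared introns lie in genes of SF3a, SF3b and U2 snRNP-associated proteins, in bpb1 and in rsd1, and none in a U2AF subunit gene. Of these 19 introns in 9 genes, 8 (42.1%) were at least 2-fold higher and 1 (5.26%) at least 2-fold lower, with a median of 0.95. Over all introns the values were 15.5%, 14.5% and 0.02. The median of the list was the value of the sap62 intron, whose counting interval ran from -1.61 to 3.50. That intron had 2 spliced reads in each library. Introns of 49 nt or longer in the list had a median of 0.60, against -0.09 over all introns of that length. On raw shares the list was close to level, at a median of 78.9% in prp10-R379H and 80.5% in sap114-A152V. For all 119 compared introns of spliceosome genes the median was 0.28, with 23 higher (19.3%) and 11 lower (9.24%). These 119 include the 19 branch-site introns with their 8 higher and 1 lower, so they are no separate result.

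Within that list every compared intron of ini1 was higher in prp10-R379H relative to the median. Intron 1 had 91.4% in prp10-R379H and 88.1% in sap114-A152V (1.61, SE 0.54). Intron 2 had 86.5% in prp10-R379H and 78.4% in sap114-A152V (1.94, SE 0.35). The intron of bpb1, which encodes the protein that binds the branch site before U2 snRNP does, had 85.5% in prp10-R379H and 62.0% in sap114-A152V (2.91, SE 0.68, edgeR adjusted p = 0.020). Intron 1 of the prp10 gene itself had 84.1% in prp10-R379H and 80.5% in sap114-A152V (1.46, SE 0.54), while its intron 2, retained at 93.3% and 88.9% in WT, had 96.1% in prp10-R379H and 96.4% in sap114-A152V (0.98, SE 0.65). The 4 introns of the sap114 gene were split. Intron 4 had 78.9% of 38 reads in prp10-R379H and 67.6% of 37 in sap114-A152V (1.94, SE 0.75), and intron 3 had 55.6% of 54 in prp10-R379H and 93.8% of 97 in sap114-A152V (-2.38, SE 0.70). Its introns 1 and 2 had values of 0.58 and -0.61, with SEs of 0.81 and 0.70. The intron of sap62, at 98.3% in prp10-R379H and 98.5% in sap114-A152V, had 98.2% and 93.4% in WT. The introns of sap49, sap61 and uap2 had values from -0.70 to 0.62 and intervals that included 0. In rsd1 the 3 compared introns of 6 had values of 0.77, 1.55 and 2.37 on 20 to 38 reads each, with SEs of 0.83, 1.02 and 1.08. The intervals of its introns 3 and 4 included 0. That of intron 5 ran from 0.25 to 4.49, on 3 unspliced reads in sap114-A152V.

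**Figure D5:**
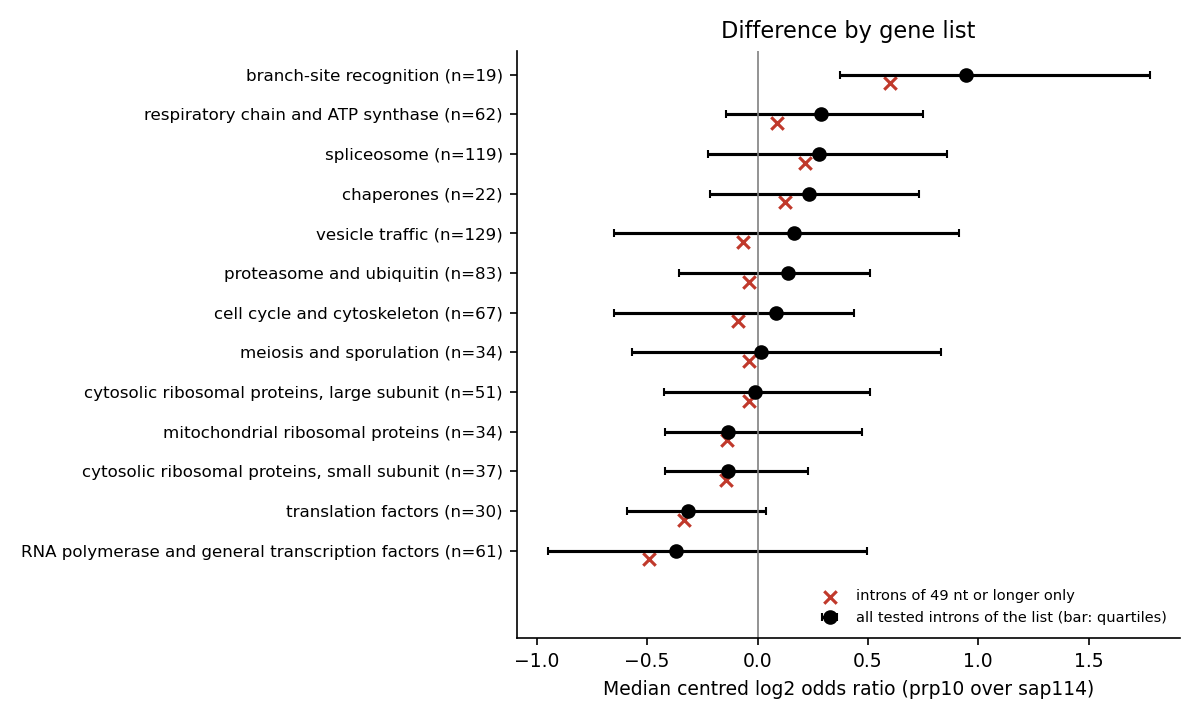
Median centred log2 odds ratio, prp10-R379H over sap114-A152V (x axis), for 13 gene lists (y axis, with the number of compared introns). Points are medians over all compared introns of a list with quartile bars, and crosses are medians over its introns of 49 nt or longer. Branch-site recognition stands highest at 0.95, and RNA polymerase and general transcription factors lowest at -0.37.

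Lists for the respiratory chain, protein turnover, chaperones and vesicle traffic had medians above the 0.02 of all introns, in part with their short introns. Over introns of 49 nt or longer the median was 0.09 for the respiratory chain, 0.12 for chaperones, -0.04 for proteasome and ubiquitin genes and -0.06 for vesicle traffic, against -0.09 for all introns of that length. In the respiratory chain and ATP synthase list 12 of 62 introns (19.4%) were at least 2-fold higher and 1 (1.61%) lower. The median was 0.29, and 15 of the 62 introns were 48 nt or shorter. Among its subunit genes of cytochrome oxidase, cox12 intron 1 had 18.9% in prp10-R379H and 9.35% in sap114-A152V (2.29, SE 0.32), and cox13 intron 3 had 27.1% in prp10-R379H and 18.9% in sap114-A152V (1.80, SE 0.24). For proteasome and ubiquitin genes the count was 12 higher (14.5%) and 7 lower (8.43%) of 83, with a median of 0.14, so the share of higher introns was no larger than the 15.5% over all introns. Intron 1 of pup2, for a subunit of the core particle, had 40.9% of 364 reads in prp10-R379H and 17.2% of 412 reads in sap114-A152V. WT had 0.426% and 0.425%. Its value was 2.85 (SE 0.24, edgeR adjusted p = 4.73e-16), and pre5 intron 1, of another core subunit, had 50.3% in prp10-R379H and 29.3% in sap114-A152V (2.41, SE 0.21). Vesicle traffic genes had 30 higher (23.3%) and 23 lower (17.8%) of 129, with a median of 0.16; relative to all introns it was 0.14, and 0.02 when each intron was thinned to equal reads. Examples were vps35 intron 4, of the retromer, at 83.3% in prp10-R379H and 58.6% in sap114-A152V (2.90, SE 0.54), and sec17 intron 2, of the SNARE cycle, at 69.2% in prp10-R379H and 45.9% in sap114-A152V (2.52, SE 0.41). The chaperone list had 3 higher (13.6%) and 1 lower of 22 (median 0.23), again with no larger a share of higher introns than over all. The 1 lower was wos2 intron 1, of an Hsp90 partner, with 65.8% of 8725 reads in prp10-R379H and 94.2% of 29191 in sap114-A152V (-1.94, SE 0.049). This gene and aha1 also had fewer reads in prp10-R379H, whose part in the result was not tested.

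The other lists had medians near or below that of all introns, of which 15.5% were at least 2-fold higher and 14.5% lower. RNA polymerase and general transcription factor genes had 9 higher (14.8%) and 14 lower (23.0%) of 61 introns. The median was -0.37, and -0.49 for introns of 49 nt or longer. All 3 introns of tbp1 are among the 14 lower. Translation factor genes had 2 higher and 3 lower of 30 (median -0.32), yet intron 1 of tif45, for a cap-binding factor, had 30.2% in prp10-R379H and 21.2% in sap114-A152V (1.81, SE 0.24). The large-subunit ribosomal protein genes had 6 higher and 1 lower of 51 introns with a median of -0.01. Examples were rpp202 intron 1, at 7.92% in prp10-R379H and 6.11% in sap114-A152V (1.53, SE 0.19), and rpl2701 intron 1, at 29.2% in prp10-R379H and 25.2% in sap114-A152V (1.42, SE 0.085). Small-subunit genes had 2 higher (5.41%) and 1 lower (2.70%) of 37 (median -0.14). The 1 lower was rps2402 intron 1, at 13.7% in prp10-R379H and 46.6% in sap114-A152V (-1.33, SE 0.098), and one of the higher was rps3001 intron 1, at 325 of 2319 reads in prp10-R379H and 352 of 2636 in sap114-A152V (1.20, SE 0.12). Many ribosomal protein genes have a close copy, and how the authors' counting split such reads is not given in the sources used here. Mitochondrial ribosomal protein genes had 6 higher (17.6%) and 3 lower (8.82%) of 34 (median -0.13). Cell cycle and cytoskeleton genes had 7 higher (10.4%) and 10 lower (14.9%) of 67 (median 0.09). Meiosis and sporulation genes had 5 higher (14.7%) and 6 lower (17.6%) of 34 (median 0.02). Among the last, spo14 intron 1, of 37 nt, had 78.1% in prp10-R379H and 70.1% in sap114-A152V (1.73, SE 0.41), and spo20 intron 3, of 63 nt, had 49.7% in prp10-R379H and 85.8% in sap114-A152V (-1.48, SE 0.26). On the uncentred scale the median of every list was below 0, from -0.18 for branch-site recognition to -1.50 for RNA polymerase and general transcription factors.

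The introns of the cyclin-dependent kinase gene cdc2 all had negative values. Intron 2 had 53.1% in prp10-R379H and 89.0% in sap114-A152V (-1.68, SE 0.47), intron 5 had 51.2% in prp10-R379H and 87.9% in sap114-A152V (-1.64, SE 0.48), and the other 3 ran from -0.26 to -0.94 with intervals that included 0. In the beta-tubulin gene nda3 the shortest intron had the highest value, but the order did not follow length throughout. Its intron 1, of 36 nt, had 59.3% in prp10-R379H and 53.2% in sap114-A152V (1.48, SE 0.30), and its intron 5, of 85 nt, had 28.3% in prp10-R379H and 60.8% in sap114-A152V (-0.85, SE 0.20). Introns 2, 3 and 4, of 51, 41 and 89 nt, had values of -0.05, 0.41 and 0.19 with intervals that included 0.

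Choice of splice site, which the selection of introns did not use, differed little. Junctions to an alternative 3′ splice site took 0.376% of spliced reads in prp10-R379H (95% Wilson interval 0.356 to 0.397%) and 0.358% in sap114-A152V (0.339 to 0.379%), with 0.418% and 0.385% in WT. Of 267 such junctions with at least 20 reads at the shared 5′ site in both strains, 118 had a higher share in prp10-R379H, 145 a lower and 4 an equal one, and none had Wilson intervals that stood apart. Sites inside the annotated intron took 0.590% of the reads at their shared sites in prp10-R379H and 0.498% in sap114-A152V. Both were below the 0.745% and 0.729% of WT, and the other mutants ran from 0.499% in ntr1 to 0.870% in cwf22. Sites beyond it took 1.16% in prp10-R379H and 1.43% in sap114-A152V, the highest of the 8 libraries. In WT they took 1.08% and 1.03%, and in the other mutants from 0.936% in prp22 to 1.16% in ntr1. The largest single differences rested on few reads. In grx2 intron 2 a 3′ site 17 nt downstream took 3 of 52 reads in prp10-R379H (5.77%) and 11 of 51 in sap114-A152V (21.6%). In SPAC4G8.08 intron 2 a site 95 nt upstream took 4 of 25 reads in prp10-R379H and 0 of 21 in sap114-A152V, which allows a share of up to 14.3%.

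Alternative 5′ splice sites took 0.256% of spliced reads in prp10-R379H (0.239 to 0.273%) and 0.262% in sap114-A152V (0.246 to 0.280%). Of 235 junctions 119 had a higher share in prp10-R379H, 115 a lower and 1 an equal one. The intervals stood apart for 6, which are named after their values were seen: rps27 intron 1 and mpc1 intron 5 higher in prp10-R379H, and ypt1 intron 1, spi1 intron 2, cct3 intron 2 and pup2 intron 3 lower. In ypt1 intron 1, of a Rab GTPase gene, a 5′ site 122 nt inside the intron took 78 of 914 reads in prp10-R379H (8.53%, 6.89 to 10.5%) and 146 of 1000 in sap114-A152V (14.6%, 12.5 to 16.9%). In mpc1 intron 5 a 5′ site 3 nt upstream took 22 of 282 reads in prp10-R379H (7.80%) and 0 of 178 in sap114-A152V, which allows a share of up to 1.69%. The other 6 libraries lay between 0.287% and 1.68% at this site. Among the 2 junctions in each direction with the largest difference, taf1 intron 1 had a site 4 nt inside the intron with 5 of 99 reads in prp10-R379H and 7 of 35 in sap114-A152V, and eaf1 intron 3 a site 64 nt inside it with 19.2% in prp10-R379H and 4.55% in sap114-A152V.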

How the data were processed

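Poly(A) RNA-seq libraries of 6 mutant strains (1 each) and WT (2) were analysed from 1 table of the whole series. The authors deposited raw counts of spliced and unspliced reads per junction and library, per the file headers. STAR 2.5, bedtools 2.26 and build ASM294v2 are named in the submitters' processing notes. How reads were classed as unspliced is not given in the sources used here. Since that rule could weigh introns by length, levels were compared between libraries and not between lengths within one.

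Groups were taken from the labels. The sequence of 1 intron is not reported here. Of 5144 annotated introns, 5077 matched an intron of the NCBI annotation at both ends, which gave gene names and, from its genome, the sequences; of 5143 on chromosomes I to III, 5134 had GT at the start and AG at the end. Log2 odds used a pseudocount of 0.5 and were centred on each library's median over introns with at least 20 reads in both libraries. Counting SEs and 95% intervals came from the 4 counts of an intron, and shares have Wilson intervals. Reads were not deduplicated by molecular identifiers, as far as the table shows, so both cover counting error only. As an alternative, spliced and unspliced counts of all 8 libraries were fitted with edgeR 4.0.16 (quasi-likelihood) and DESeq2 1.42.0 in R 4.3.3. The library medians were the offsets, and the 1 residual degree of freedom came from the WT pair. In the edgeR fit the prior degrees of freedom came out infinite, so its test took a spread pooled over introns as known. Its adjusted p-values for single introns rest on that and do not measure a spread between cultures of the mutants. Both were run on simulated counts, with the calls summarized for edgeR only. All simulated libraries were given the same spread, so that run cannot check whether a mutant library varies like WT. Other tools were Python 3.11.15, numpy 2.4.6, pandas 2.3.3 and matplotlib 3.10.9.

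The strains compared, the gene lists (by symbol) and the rules were chosen with earlier results of these data known. Introns named were, with at least 50 reads in both libraries, the 12 largest and 12 smallest differences whose interval excluded 0, 1 a gene, the 4 genes with the widest gap between introns of opposite sign and up to 3 introns a list, as well as all introns of prp10, sap114, tbp1, cdc2, nda3 and the branch-site recognition genes, and the alternative junctions with the largest differences in share. Views by single splice-site base, by distance from the 5′ splice site to the branch site, by length bin and within genes were added after the values were seen.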

Additional observations from a re-analysis of the deposited data

How the results depend on the processing

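The median unspliced share stayed lower in prp10-R379H than in sap114-A152V over summed reads and with at least 10 or 50 reads. The counts past 2-fold depend on the settings. At least 50 reads in both libraries left 266 introns higher and 289 lower. With 1 read in both, 760 were lower and the standard deviation of the difference was 1.16. Without centring 95 were higher and 1757 lower. With the counting interval off 0, 252 were lower. The edgeR fit called 89 and 63, and the DESeq2 fit 4 and 5, at an adjusted p under 0.05 (289 and 231, and 74 and 53, at an unadjusted p under 0.05); fewer pass there by construction, since the spread of the WT pair is added. The median of introns of 48 nt or shorter, relative to all, was 0.42, and 0.38 with each intron thinned to equal reads and 0.47 at 50 reads or more. The median of the cell cycle and cytoskeleton list, relative to all introns, turned to -0.11 when each intron was thinned to equal reads and to -0.16 at 50 reads or more; the cause was not tested. Of 765 values of single named introns under other settings 763 stayed within their counting error, 2 moved beyond it (wos2 intron 1, -2.04 when centred on summed reads, and sap61 intron 2, at 0.21 and -1.92 when thinned, a change of sign in a value whose counting interval included 0). Of those whose interval excluded 0, 0 changed sign. No paired analysis was possible because each mutant strain has 1 library. Leaving out a replicate was not possible either, since without one WT library no residual degrees of freedom remain. Depth limits introns with few spliced reads, whose folds rest on single counts.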

Other observations

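Junctions that the authors classed as new introns took 7.58% of spliced reads in prp10-R379H and 10.4% in sap114-A152V, with 6.72% and 6.70% in WT and 6.75% to 9.94% in the other mutants. Gaps under 30 nt made up part of these, 2.89% of spliced reads in prp10-R379H, 3.93% in sap114-A152V and 2.11% and 2.13% in WT. Those of 30 nt or more took 4.69% in prp10-R379H and 6.46% in sap114-A152V. Other pairings of annotated sites, among them skipped exons, took 1.40% in prp10-R379H and 1.29% in sap114-A152V, against 1.08% and 1.15% in WT. These are shares of spliced reads, and annotated splicing was lower in sap114-A152V.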
